A study of Mus musculus with 5 samples.

Results

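Fibro-adipogenic progenitors are the connective tissue cells that lie between the fibres of skeletal muscle and around its vessels, and 10 genes used as their markers are described here: Pdgfra, Ly6a, Dpt, Pi16, Clec3b, Gsn, Mfap5, Smoc2, Cxcl14 and Hic1. They were chosen by name as stromal progenitor markers and matched to the table by mouse Ensembl gene identifier, and all 10 were found among 35275 genes. Messenger RNA of the gastrocnemius, a calf muscle, was sequenced from female NOD scid gamma (NSG) mice, labelled wild type, at an age of 12 weeks. The mice had received 10 tail-vein injections, 2 per week for 5 weeks, of about 10 µg of extracellular vesicles from the MCF-10A/miR122 cell line, and the muscle was taken 2 days after the last one. MCF-10A cells are human breast epithelium that does not form tumours, miR-122 is a microRNA best known from liver, and NSG mice are without functional lymphocytes and natural killer cells. The labels give 5 libraries, numbered 1 to 5, in this 1 group, so the values describe the markers in treated muscle and their spread between libraries, with no untreated library beside them. The labels do not state that each library is a separate animal, so each spread may be technical in part.

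Fibro-adipogenic progenitors carry the receptor PDGFRα, encoded by Pdgfra, and respond to platelet-derived growth factors. In resting muscle they supply matrix and secreted signals to fibres and satellite cells. After injury they multiply, help to clear debris and support regeneration, and they can turn into adipocytes or matrix-depositing fibroblasts when repair fails. Single-cell surveys of mouse tissues divide such cells into states, among them one around vessels and in fascia that is marked by Pi16, Dpp4 and Sema3c. In RNA from whole tissue, fewer cells of a type and less RNA per cell cannot be told apart.

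Levels are given in FPKM, the reads of a gene per kilobase of its length and 1000000 reads of its library, so that genes of different length can be set side by side. The libraries held 16674504 to 25407988 reads. The fibre marker list (Acta1, Ckm, Myh4 and 7 others) summed to 76994 to 103453 FPKM, and the lymphocyte list to 0.186 to 0.752 FPKM, with Ncr1 listed at 0 in all 5 libraries. Library 3 stood apart from the others over the whole transcriptome, with Pearson's r across genes of 0.961 to 0.970 in its 4 pairs and 0.981 to 0.988 in the others. Genes in it are not independent of each other.

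All 10 markers were above 1 FPKM in every library. Gsn was the highest by far at 590 ± 125 FPKM, followed by Clec3b at 62.4 ± 7.36, Dpt at 53.8 ± 5.34, Ly6a at 53.02 ± 17.2, Cxcl14 at 38.6 ± 5.80, Smoc2 at 31.9 ± 2.75, Pi16 at 17.9 ± 1.96, Mfap5 at 13.9 ± 9.70, Hic1 at 5.65 ± 0.638 and Pdgfra at 5.09 ± 1.03 (SD, n = 5). The lineage receptor and the transcription factor Hic1 were thus the lowest of the set, at percentiles 45.2 and 48.2 among the 10710 genes with a mean of 1 FPKM or more, and Gsn was at percentile 99.3. The read numbers behind a value ran from 361 for Hic1 in library 3 to 43608 for Gsn in library 4. Between neighbours in this order, 3 pairs did not differ beyond their spread: Dpt and Ly6a, Pi16 and Mfap5, and Hic1 and Pdgfra each kept their order in 4 of 5 libraries, with log2 ratios of 0.06 ± 0.31, 0.51 ± 0.65 and 0.14 ± 0.15 (on log2(FPKM + 1), SD, n = 5). The other 6 neighbouring pairs kept their order in all 5 libraries. The narrowest of these were Clec3b over Dpt, by 0.21 ± 0.11, and Cxcl14 over Smoc2, by 0.26 ± 0.25. The order was set by the same values, so it was not tested.

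**Figure D1:**
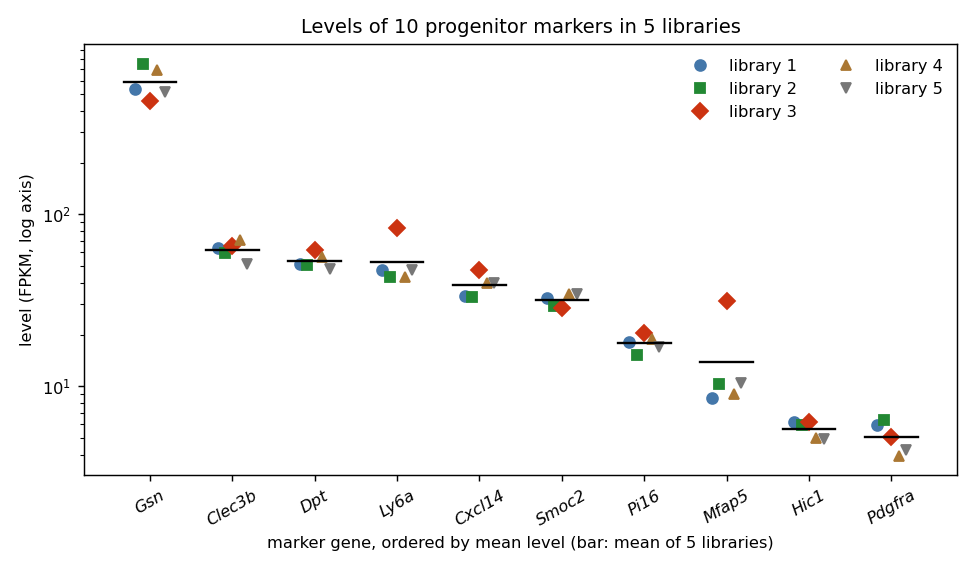
Level of each of the 10 markers in each of the 5 libraries (vertical axis, FPKM on a log scale), with genes ordered by mean level along the horizontal axis and a bar at each mean. Gsn lies far above the rest, and library 3 stands clear of the other 4 libraries for Ly6a and Mfap5.

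As a set the markers were about as variable between libraries as other genes. The median SD over their log2(FPKM + 1) values was 0.19, and that over all 10710 genes was also 0.19. Which of these medians was the larger changed with the settings, as given in the last section. Limma's test of each gene's variance against the trend for its abundance called 0 of the 10 markers and 0 of all 10710 genes at an adjusted p of 0.05 (0% called). On simulated data the same test, after adjustment, missed nearly all genes given an SD well above the trend, so the 0 calls do not show that the spreads were alike. At an unadjusted p of 0.05 it called 1 marker, Mfap5, and 616 genes (5.75%). Against counting error alone, a chi-square test on the reads called 10 of 10 markers and 87.9% of 10703 genes after Benjamini-Hochberg adjustment, so the markers' share lies near the background. Counting error alone gave the markers coefficients of variation of 0.564% to 4.91%, against measured ones of 8.62% to 69.7%. The chi-square per degree of freedom ranged from 5.68 for Hic1 to 1395 for Gsn, the gene with the most reads.

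**Figure D2:**
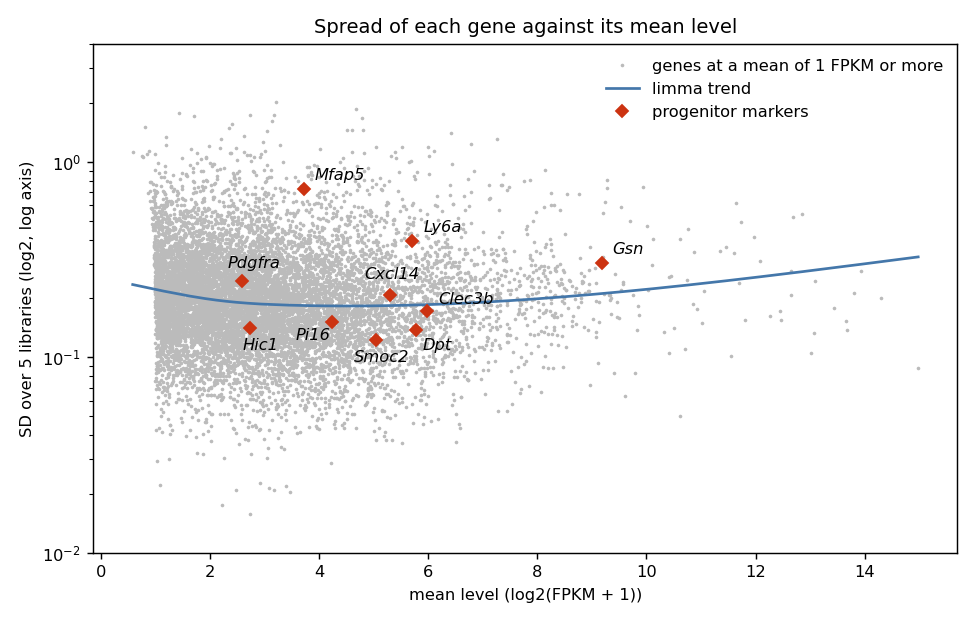
SD over the 5 libraries on the log2(FPKM + 1) scale (vertical, log axis) against mean level (horizontal) for 10710 genes in grey, with limma's trend as a line and the 10 markers as diamonds. Mfap5 and Ly6a lie above the trend at SDs of 0.73 and 0.39, and Smoc2 has the lowest SD of the markers at 0.12 on the deposited scale, but not after median-of-ratios scaling, where Hic1 is at 0.07 and Smoc2 at 0.21.

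Pdgfra encodes the receptor tyrosine kinase that defines the lineage (ENSMUSG00000029231, chromosome 5, 75152292 to 75198215). It was at 5.92, 6.32, 5.04, 3.95 and 4.24 FPKM in libraries 1 to 5. Libraries 1 and 2 were the highest and libraries 4 and 5 the lowest, and library 3 lay in the middle, at 0.987 times the mean of the other 4. The SD of 0.25 on the log2 scale lay at percentile 69.8 of all genes in the ratio to the abundance trend. Exons of an antisense gene, Gm42802, cover 4.55% of its 10024 annotated exon bases. The values rest on a length of 6570 bases, so the overlap within the counted exons is not known. Without a stated strand setting, reads of both genes cannot be told apart. The antisense gene AC162182.1 likewise covers 3.49% of the annotated exon bases of Pi16. The Pdgfra relative Pdgfrb, the receptor of mural cells and fibroblasts, was at 10.8, 12.4, 11.0, 8.34 and 7.34 FPKM. It was likewise lowest in libraries 4 and 5.

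Hic1, a zinc-finger repressor that marks quiescent mesenchymal progenitors in muscle (ENSMUSG00000043099, chromosome 11, 75164565 to 75169519), was at 6.16, 5.97, 6.19, 5.00 and 4.91 FPKM. As for Pdgfra, libraries 4 and 5 were lowest, below the other 3 libraries. The log2 ratio of Pdgfra to Hic1 was -0.14 ± 0.15 (SD, n = 5), where counting error alone gives an SD of 0.09. Rescaling the libraries by median-of-ratios factors lowered the coefficient of variation of Hic1 to 5.74%, in place of 11.3%, beside a counting error of 4.91%. The chi-square test then called every marker but Hic1, and 84.9% of all genes.

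Ly6a encodes Sca-1, a membrane-anchored protein used to sort these cells, which endothelial cells carry as well (ENSMUSG00000075602, chromosome 15, 74994877 to 74998031). It was at 47.6, 43.1, 83.5, 43.3 and 47.7 FPKM. Library 3 was the highest, 1.75 times the next library, and the other 4 lay between 43.1 and 47.7. Without library 3 the mean was 45.4 ± 2.60 FPKM (SD, n = 4), and the SD on the log2 scale was 0.08 in place of 0.39. Limma gave an unadjusted p of 0.0882 and an adjusted p of 0.948 for this spread. The 10 endothelial markers were not highest in library 3 for any gene, and their summed level was 121 FPKM there, against 125 to 157 in the other libraries. Of its relatives in the Ly6 family, Ly6e was at 32.2 FPKM in library 3 and at 14.0 to 15.0 in the others. Ly6c2, with a mean below 1 FPKM, was at 1.75 FPKM in library 3 and at 0.426 to 0.866 in the others. Ly6c1 was at 56.0 FPKM in library 3, inside the 55.6 to 67.2 of the others. Ly6 genes are similar in sequence and lie near each other on this chromosome, so reads could be split between them, and the counting rule for such reads is not stated in the labels.

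Mfap5 encodes a glycoprotein of the fibrillin microfibrils (ENSMUSG00000030116, chromosome 6, 122505845 to 122529290), and it varied most of the 10. It was at 8.58, 10.3, 31.2, 9.01 and 10.5 FPKM, from 490, 474, 1296, 535 and 664 reads. Library 3 was 2.97 times the next library, and the other 4 did not exceed 10.5 FPKM. Its SD of 0.73 lay at percentile 98.4 in the ratio to the trend, with an unadjusted p of 0.0109 and an adjusted p of 0.680 in limma. Without library 3 the mean was 9.59 ± 0.934 FPKM (SD, n = 4) and the SD on the log2 scale 0.13. Fbn1, which encodes the fibrillin to which Mfap5 protein binds, was at 27.5 FPKM in library 3, against 6.09 to 11.04 in the others. The paralog Mfap2, also a microfibril protein, was at 6.15 FPKM in library 3, inside the 4.29 to 7.14 of the others. Mfap5 and Ly6a were the 2 markers whose level in library 3 was over 1.5 times the next library, as was the case for 777 of 10710 genes (7.25%). Both also had a gap between library 3 and the next library of over 0.71 of the range (Dixon's 95% value). So had 6.23% of all genes with library 3 on top, and 9.79% with any library at either end.

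Dpt, Pi16 and Clec3b, 3 other genes of the matrix or extracellular fluid, varied less, with coefficients of variation of 9.93%, 11.0% and 11.8%. Dpt encodes dermatopontin, a matrix protein that binds decorin (ENSMUSG00000026574, chromosome 1, 164796644 to 164824266), and was at 51.5, 51.0, 61.7, 56.5 and 48.2 FPKM. Pi16, which encodes a secreted peptidase inhibitor (ENSMUSG00000024011, chromosome 17, 29317680 to 29330593), was at 18.1, 15.3, 20.5, 18.8 and 16.8 FPKM. Library 3 was the highest for both, by 1.09 times the next library in each case, and library 4 came second. Clec3b encodes tetranectin, a lectin that binds plasminogen (ENSMUSG00000025784, chromosome 9, 123150946 to 123157432), and was at 63.9, 59.7, 65.7, 71.3 and 51.6 FPKM. Library 4 was the highest and library 5 the lowest. Leaving out library 5 lowered its SD on the log2 scale to 0.10, in place of 0.17.

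On log2(FPKM + 1), the ratio of Dpt to Pi16 was the steadiest of the 45 pairs among the markers, at 1.54 ± 0.09 (SD, n = 5). Counting error on the reads, without the added 1, gives an SD of 0.06. That of Pi16 to Cxcl14 was -1.06 ± 0.13. At the other end, the log2 ratio of Gsn to Mfap5 was 5.46 ± 0.94. Pi16 and Mfap5 are both known from the vessel-associated state, and their ratio varied by 0.65. Dpp4, another gene of that state, was at 2.35 FPKM in library 3, against 1.38 to 2.18 in the others. Sema3c was at 9.62 FPKM in library 3 and Cd55 at 6.72, both inside the range of the other libraries, 6.16 to 10.2 and 5.00 to 7.73 FPKM. Dpp4, Sema3c and Cd55 were singled out after their values were seen.

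Smoc2 and Cxcl14 also encode secreted proteins, and library 3 lay at opposite ends of their ranges. Smoc2, a calcium-binding matricellular protein (ENSMUSG00000023886, chromosome 17, 14279506 to 14404790), was at 32.7, 29.2, 28.7, 34.2 and 34.5 FPKM. It was lowest in library 3. On the deposited scale it had the smallest spread of the set, with a coefficient of variation of 8.62%. With median-of-ratios factors this was 14.6%, and Hic1 had the smallest at 5.74%. The Smoc2 relative Smoc1, with a mean below 1 FPKM, was at 1.80 FPKM in library 3 and at 0.394 to 0.804 in the others. Cxcl14, a chemokine (ENSMUSG00000021508, chromosome 13, 56288643 to 56296551), was at 33.7, 32.9, 47.3, 39.6 and 39.6 FPKM. Library 3 was the highest, 1.19 times the next library, and libraries 1 and 2 were the lowest. The better known stromal chemokine Cxcl12 was at 22.2, 24.8, 17.5, 17.5 and 18.8 FPKM, without the higher level in library 3.

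Gsn encodes gelsolin, which severs and caps actin filaments and is made by many cell types, muscle fibres among them (ENSMUSG00000026879, chromosome 2, 35256380 to 35307892). It was at 534, 753, 458, 690 and 514 FPKM. Libraries 2 and 4 were the highest and library 3 the lowest, so Gsn was lowest in the library where Mfap5 and Ly6a were highest. It held 74.6%, 81.3%, 66.7%, 78.7% and 74.5% of the reads of all 10 markers in libraries 1 to 5. The markers together took 0.207% ± 0.0302 of a library, and the 9 without Gsn took 0.0501% ± 0.00599 (SD, n = 5). The gelsolin relative Capg, a macrophage actin-capping protein, was at 16.2 FPKM in library 3 and at 2.96 to 3.70 in the others. Another relative, Scin, went the other way at a mean below 1 FPKM. It was at 0.160 FPKM in library 3 and at 0.329 to 0.701 in the others.

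By library, 6 of 10 markers had their highest level in library 3 (Dpt, Ly6a, Cxcl14, Pi16, Mfap5 and Hic1), where 37.4% of 10710 genes also had theirs. Of the 6, 4 exceeded the next library by at most 1.19 times. The mean deviation of the 10 markers from their own means was 0.24 in library 3, against -0.12 to -0.03 in the others (log2). Without Mfap5 it was 0.12 in library 3, and the median over the 10 was 0.15. This depended on how libraries were scaled, since the median deviation of all genes was between -0.10 in library 4 and 0.06 in library 3. With median-of-ratios factors, 3 markers (Ly6a, Cxcl14 and Mfap5) were highest in library 3, as were 28.6% of all genes. In library 4, 5 were highest (Gsn, Clec3b, Dpt, Smoc2 and Pi16), as were 23.1% of all genes. Mfap5 and Ly6a in library 3 were still at 3.02 and 1.71 times the mean of the others. The 8 markers other than Mfap5 and Ly6a had a median SD of 0.16.

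**Figure D3:**
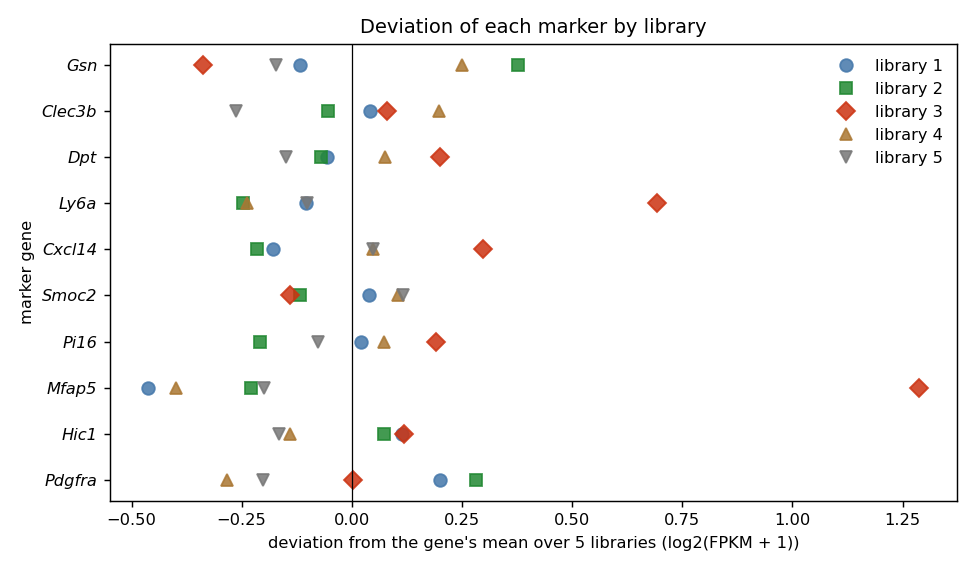
Deviation of each marker from its own mean over the 5 libraries on the log2(FPKM + 1) scale (horizontal), with genes in rows and libraries as symbols. Library 3 lies at 1.29 for Mfap5 and 0.69 for Ly6a, and between -0.34 and 0.30 for the other 8 markers.

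Promoters of members with steady ratios to each other (Dpt, Pi16 and Cxcl14, and Pdgfra and Hic1) are shown so that their sequences can be compared. RefSeq promoters (GRCm38.p6, 250 bases before to 50 after a start) were matched for 6 of the 10 markers, with 9 starts in all. Clec3b, whose ratio to Dpt was the next steadiest after Dpt to Pi16 (SD 0.11), had none. The window shown for Hic1 lies beyond the gene span given above, and that of Pi16 lies inside its span. Those of Dpt (chr1:164796413-164796712, plus strand), Pi16 (chr17:29318632-29318931, plus strand), Cxcl14 (chr13:56296502-56296801, minus strand), Pdgfra (chr5:75152001-75152300, plus strand) and the upstream start of Hic1 (chr11:75170206-75170505, minus strand) read as follows, with matches on either strand in capitals, to the TATA box (TATAAA), the motif of nuclear factor Y (CCAAT), the GC box bound by Sp1 (GGGCGG), the AP-1 motif (TGANTCA) or the TEAD motif (GGAATG).
Dpt: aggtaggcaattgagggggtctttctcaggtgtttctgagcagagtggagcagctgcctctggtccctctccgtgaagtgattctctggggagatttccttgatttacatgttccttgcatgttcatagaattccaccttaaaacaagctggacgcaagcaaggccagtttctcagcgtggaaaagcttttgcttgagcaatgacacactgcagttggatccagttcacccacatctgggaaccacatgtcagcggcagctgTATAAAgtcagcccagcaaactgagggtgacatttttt
Pi16: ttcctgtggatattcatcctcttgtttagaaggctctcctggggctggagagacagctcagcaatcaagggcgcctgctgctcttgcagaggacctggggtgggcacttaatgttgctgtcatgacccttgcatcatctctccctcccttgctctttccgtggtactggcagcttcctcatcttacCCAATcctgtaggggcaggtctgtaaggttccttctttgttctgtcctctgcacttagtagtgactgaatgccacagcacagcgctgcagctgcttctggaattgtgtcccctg
Cxcl14: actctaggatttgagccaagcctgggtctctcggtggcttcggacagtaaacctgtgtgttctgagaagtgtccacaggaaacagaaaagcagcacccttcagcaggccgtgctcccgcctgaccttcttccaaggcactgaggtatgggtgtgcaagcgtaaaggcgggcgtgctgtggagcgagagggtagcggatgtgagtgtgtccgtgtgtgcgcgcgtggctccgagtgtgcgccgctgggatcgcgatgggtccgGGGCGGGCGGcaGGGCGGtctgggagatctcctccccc
Pdgfra: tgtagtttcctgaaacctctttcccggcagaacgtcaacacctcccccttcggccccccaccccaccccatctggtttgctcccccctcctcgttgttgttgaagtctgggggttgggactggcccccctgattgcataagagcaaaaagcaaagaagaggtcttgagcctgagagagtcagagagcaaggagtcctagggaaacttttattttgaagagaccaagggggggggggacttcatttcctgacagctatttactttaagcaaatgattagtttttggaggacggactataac
Hic1: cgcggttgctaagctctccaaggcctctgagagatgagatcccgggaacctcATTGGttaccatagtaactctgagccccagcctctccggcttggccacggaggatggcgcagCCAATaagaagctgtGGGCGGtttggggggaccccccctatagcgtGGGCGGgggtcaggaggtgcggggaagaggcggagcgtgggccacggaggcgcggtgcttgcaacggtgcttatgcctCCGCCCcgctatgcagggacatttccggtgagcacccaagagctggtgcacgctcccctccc
Dpt alone of the 6 genes held TATAAA, which 13.6% of all 32851 promoters of that length hold. The match in Dpt began at position 13 after the start, so it lay downstream of the start and not before it. CCAAT was found for Pi16, the upstream start of Hic1 and 2 of 3 starts of Gsn (37.4% of all), and GGGCGG for Cxcl14 and all starts of Gsn and Hic1 (35.7% of all); in Cxcl14, 2 of the GGGCGG matches overlap. TGANTCA (7.81% of all) and GGAATG (14.7%) were in none of the 9, and the Pdgfra promoter held none of the 5. The GC content was 48.7% for Dpt, 53.3% for Pi16, 62.7% for Cxcl14, 51.0% for Pdgfra and 64.7% for Hic1, against a median of 52.7%. Dpt and Pi16, the pair with the steadiest ratio, shared none of the 5 motifs. A match describes letters in the window, not a bound site.

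Other stromal and fibroblast markers were highest in library 3 more often than genes at large, but the 3 most abundant of them were not. Of 30 listed genes, 28 were at 1 FPKM or more on average, and 18 of these were highest in library 3 (37.4% of all genes were), with a median SD of 0.25 against 0.19 over all genes. With median-of-ratios factors 17 of the 28 were highest in library 3 (28.6% of all genes) and 4 in library 4 (23.1% of all genes). Dcn, the small proteoglycan decorin and the most abundant of them, was at 240, 300.3, 202, 245 and 196 FPKM. It was highest in library 2. Igfbp6, a binding protein of insulin-like growth factors, was at 76.8, 111, 105, 118 and 91.4 FPKM, and Serpinf1, a secreted serpin, at 69.2, 82.4, 59.1, 86.7 and 62.02 FPKM. Both were highest in library 4.

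Genes of PDGF signalling, the pathway of the defining receptor, had a median SD slightly below that of all genes. Of 12 listed genes, 11 reached 1 FPKM on average, with a median SD of 0.17 against 0.19 over all genes. Of the 11, 2 were highest in library 3 (37.4% of all genes were). The adaptor Grb2 was at 28.3 ± 1.18 FPKM, the phosphatase Ptpn11 at 13.7 ± 1.56 and the ligand Pdgfb, a product of endothelium, at 12.1 ± 1.34 (SD, n = 5). The chi-square test called 11 of the 11, where it called 87.9% of all genes, and limma called 0 at an unadjusted p of 0.05, where 5.75% of all genes passed.

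The Hedgehog pathway is known to restrain adipogenesis of these cells through their cilia, and most of its measured genes were highest in library 2. Of 13 genes, 5 reached 1 FPKM, and 4 of the 5 were highest in library 2, as were 23.2% of all genes, and 0 in library 3. Tendon and endothelial markers were each highest in library 2 for 5 of 10 genes, with mean deviations of 0.42 and 0.23 there, against 0.35 for the Hedgehog genes (log2). The part of these cells in the Hedgehog levels was not tested. The coreceptor Gas1 was at 23.9, 32.3, 29.0, 17.4 and 13.3 FPKM, the signal transducer Smo at 4.24, 6.68, 6.06, 3.76 and 3.44, and the coreceptor Boc at 2.53, 4.33, 3.29, 1.96 and 2.02. All 3 were lowest in libraries 4 and 5, which were also the lowest for Pdgfra and Hic1; 26.7% of all genes had these libraries as their 2 lowest.

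Of 15 genes for signals that these cells send to muscle and immune cells, 10 reached 1 FPKM. Library 2 was the highest for 6 of them (23.2% of all genes) and library 3 for 3 (37.4% of all genes). Cxcl12, given above, was the most abundant. Spp1 (osteopontin) was at 1.77, 7.59, 19.1, 3.26 and 3.37 FPKM, and the macrophage growth factor Csf1 at 6.10, 6.02, 8.01, 4.47 and 4.77 FPKM. Both were highest in library 3.

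Fibrosis and adipogenesis are the fates open to these cells. Of 16 genes of TGF-beta signalling and fibrosis, all were at 1 FPKM or more, 11 were highest in library 3, where 37.4% of all genes were, and the median SD was 0.50, against 0.19 for the 10 markers. Acta2, the actin of smooth muscle and myofibroblasts, was at 69.5 FPKM in library 3 and at 29.9 to 44.5 in the others. Fn1 (fibronectin) was at 40.8 FPKM in library 3, against 13.8 to 25.4 in the others, and Tgfb3 at 25.8 against 16.9 to 21.3. Limma called 8 of the 16 at an unadjusted p of 0.05, where 5.75% of all genes passed, and 0 after adjustment. Of 10 adipogenic regulators, 8 reached 1 FPKM, with a median SD of 0.29. Of the 8, 3 were highest in library 3 (37.4% of all genes were), 2 each in libraries 2 and 4, and 1 in library 1. Their mean deviation was 0.21 in library 3, against -0.22 to 0.05 in the others (log2). The 3 most abundant were not among those highest in library 3. Cebpb was at 21.3, 35.9, 27.0, 39.7 and 33.3 FPKM, Klf15 at 18.7, 16.9, 10.8, 18.2 and 16.2, and Cebpd at 6.51, 13.2, 14.7, 23.7 and 21.3. Klf15 was lowest in library 3, while Cebpb and Cebpd were highest in library 4.

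Markers of several other cell types were also highest in library 3, as were 37.4% of all genes. All 9 macrophage markers at 1 FPKM or more (of 10) were highest there, and the list summed to 365 FPKM in library 3 (93.1 to 124 in the others). Likewise all 8 such adipocyte markers (of 10) were highest there, with a sum of 312 FPKM against 50.6 to 157. Red blood cell markers, 4 of 7 at 1 FPKM or more and all 4 highest in library 3, summed to 1029 FPKM against 328 to 501. Nerve sheath markers were highest there for 7 of 10 genes, with a sum of 202 FPKM against 94.5 to 138. Mural cell markers were highest there for 5 of 10, with a sum of 3009 FPKM against 1422 to 1895. Most of the mural sum was Des, which muscle fibres also express, at 2870 FPKM in library 3 and 1297 to 1750 in the others. The mean deviation of the mural list was 0.18 in library 3 and 0.15 in library 2 (log2). The tendon list was highest in library 3 for 2 of 10 genes, with a sum of 592 FPKM inside the 355 to 713 of the others. The satellite cell list was highest there for 3 of 6 measured genes (of 10), with a sum of 57.1 against 39.0 to 51.01. With median-of-ratios factors, 4 of the 10 mural and 2 of the 6 satellite cell genes were highest in library 3 (28.6% of all genes). The macrophage, adipocyte, red blood cell and nerve sheath counts did not change. Of the skin markers, Krt5, Krt14 and Epcam were listed at 0 in every library, and the list summed to 3.07 to 4.83 FPKM in the 5 libraries. No other marker was at 0 in all 5 apart from Ncr1. The part of these cells in the levels of Mfap5 and Ly6a was not tested.

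**Figure D4:**
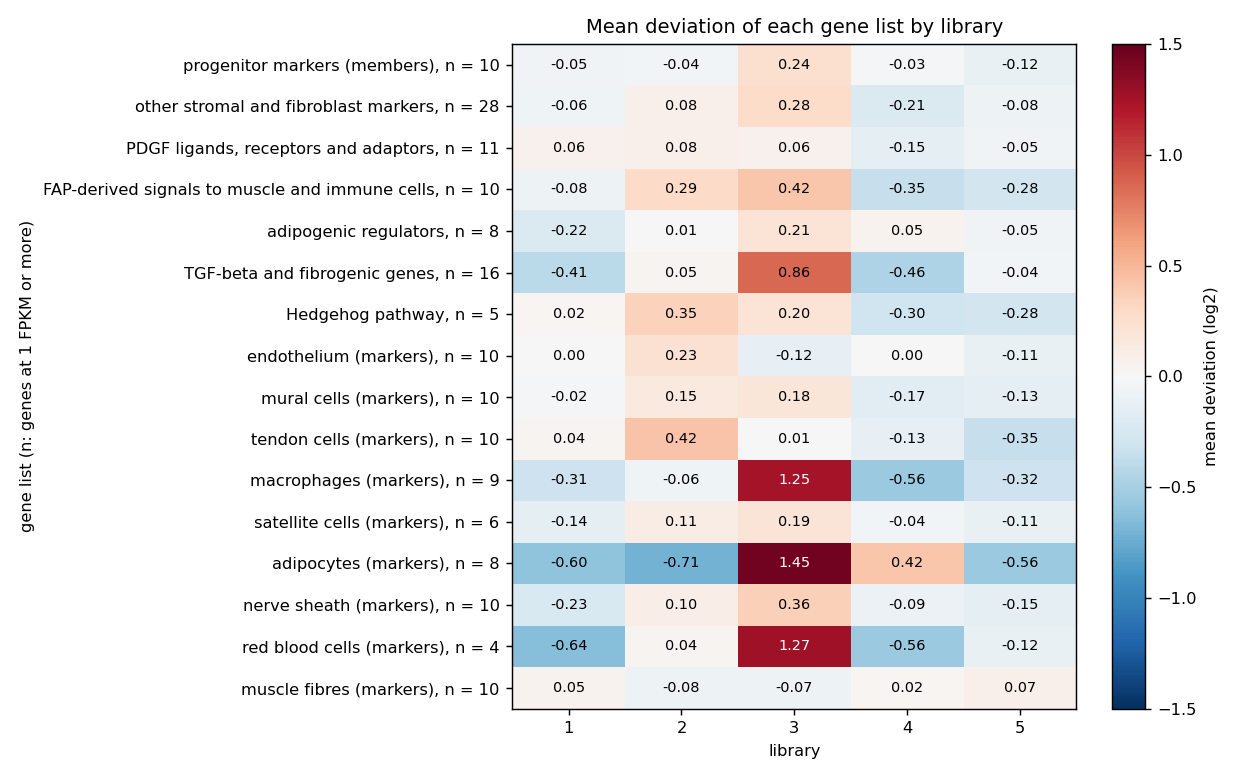
Mean deviation of the genes of each list from their own means (colour and number, log2(FPKM + 1)) in each library, for lists with at least 4 genes at 1 FPKM or more. In library 3 the macrophage, red blood cell and adipocyte lists stand at 1.25, 1.27 and 1.45, and the progenitor markers at 0.24.

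The genes whose profile over the 5 libraries was most like the mean profile of the 10 markers were Ano10, Nr2f6, Spint2, Sec14l1, Tssc4, Phb, Ext2, Cc2d1a, Rab40c and Ciao2a. Their root mean square distance from it was 0.01 to 0.03 on the log2 scale. That mean profile stood at 0.24 in library 3, and at 0.12 without Mfap5. Of the 10 markers, only Gsn and Smoc2 lay below their own means there, at -0.34 and -0.14. The nearest genes thus match an average and not each marker. The nearest, Ano10, was at 10.7, 11.0, 13.2, 11.0 and 10.2 FPKM. Nearest to Mfap5 alone were S100a10, Fcgr2b, Gatm, Chrna1 and Arpc1b, with distances of 0.04 to 0.09. S100a10, a partner of annexin A2 at the membrane, was at 29.9, 37.1, 103, 33.4 and 36.5 FPKM. Nearest to Ly6a were B4galt5, Ifi202b, Serp1, Shb and Clic1, with distances of 0.02 to 0.06, and the interferon-induced Ifi202b was at 1.12, 0.871, 2.91, 0.935 and 1.05 FPKM. With 5 libraries and 10710 genes, close profiles are easily found, and none was tested.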

How the data were processed

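The authors deposited a table of FPKM values per gene and library. Tools listed in the submitters' processing notes are HTSeq 0.6.1, STAR 2.5, TopHat, edgeR and DESeq2, with the build mm10 and no role for each. Neither the strand setting nor the annotation release is stated there, nor the handling of reads that match more than 1 gene. Because FPKM is scaled by library total, a larger share for abundant genes lowers all others.

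The FPKM of a gene are whole multiples of the value of 1 read. Each library total was read from genes with 1 read whose length matched the annotation, and a gene length was then found that made the values of a gene whole within 0.001 of a read in every library above 0 (20823 of 20840 genes, 99.9%). Of these genes, 4544 had the annotated exon length, and none of the markers did. Recovered reads summed to 99.8% of each total, and 3 reads correspond to 0.118 to 0.180 per 1000000. These limits cover counting error only.

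Genes with a mean of 1 FPKM or more were fitted on log2(FPKM + 1) in limma 3.58.1 (R 4.3.3) with an intercept, and variance over abundance trend was compared with F on 4 and 3.93 degrees of freedom, one-sided, with Benjamini-Hochberg adjustment. Reads were tested against counting error by chi-square. Symbols, coordinates and exon lengths came from GENCODE M21 (GRCm38, the assembly of mm10), and older symbols were matched through RefSeq. Markers, lists and tests were chosen with earlier results of these data known. The named genes are the 10 markers, the 3 most abundant of each list that marks no other cell type, and the 10 nearest in profile; 15 related genes and the 5 nearest to each of Mfap5 and Ly6a were added after values were seen. Alternatives covered pseudocount, filter, scaling and leaving out each library. Other steps ran in Python 3.11.15 with matplotlib 3.10.9, pandas 2.3.3, scipy 1.17.1 and numpy 2.4.6.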

Additional observations from a re-analysis of the deposited data

Results flagged for a closer look

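In a group of 5 libraries, a value was taken to lie apart when its gap to the nearest library exceeded 0.71 of the whole range (Dixon's 95% value), which chance alone gives in about 1 in 20 groups. Of the 10710 genes at 1 FPKM or more, 9.79% had such a library at either end, and for 6.23% it was library 3 above the others. Among the markers this was so for Mfap5, at 31.2 FPKM in library 3 against 8.58 to 10.5, and for Ly6a, at 83.5 FPKM in library 3 against 43.1 to 47.7. Among related genes, library 3 lay apart for Ly6e at 32.2 FPKM (others 14.0 to 15.0), Capg at 16.2 (2.96 to 3.70) and Fbn1 at 27.5 (6.09 to 11.04). Library 4 lay apart below the others for Ptpn11 at 10.9 FPKM (others 14.1 to 14.6) and for Sema3c at 6.16 FPKM (9.38 to 10.2).

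Genes named because their profile resembled that of the markers share that property by choice. Of those nearest to the mean profile, library 3 lay apart for Ano10 at 13.2 FPKM, Nr2f6 at 7.27, Sec14l1 at 19.6, Phb at 98.9 and Cc2d1a at 11.3. Of those nearest to Mfap5 it did so for S100a10 at 103 FPKM, Fcgr2b at 4.18, Gatm at 11.9, Chrna1 at 14.99 and Arpc1b at 34.9. Of those nearest to Ly6a it did so for B4galt5 at 7.31 FPKM, Ifi202b at 2.91, Serp1 at 16.3, Shb at 4.70 and Clic1 at 20.7.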

How the results depend on the processing

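Limma's count of genes beyond the abundance trend was 0 to 4 with 1 library left out (4 without library 3, none of them a marker) and 0 under the other alternatives. The chi-square test called 8335 to 9019 genes with 1 library left out (78.9% to 84.6%), against 9413 with all 5 (87.9%). It called all 10 markers in each of these. Under median-of-ratios scaling it called 9 of the markers and 84.9% of all genes. The median SD of the markers was 0.14 to 0.20 with 1 library left out, the lowest without library 3. There it was 0.14 for the markers and 0.17 for all genes. With a pseudocount of 0.1 the medians were 0.19 for the markers and 0.23 for all genes, and under median-of-ratios scaling 0.20 and 0.18. The largest number of markers highest in 1 library was 4 to 7 with 1 library left out. It was 6 or 7, in library 3, when a library other than 3 was left out (39.1% to 44.7% of all genes). Without library 3 it was 4, in library 4 (17.3% of all genes). Under median-of-ratios scaling it was 5, in library 4 (23.1% of all genes). Leaving out library 3 lowered the SD of Mfap5 by a factor of 5.69, to 0.13, and that of Ly6a by 4.87, to 0.08. The SD of Clec3b fell less, by 1.66, to 0.10 without library 5. Those of Dpt and Cxcl14 fell by 1.49 and 1.45 without library 3. Leaving out the most extreme of 5 values lowers an SD in any case. Without Mfap5 and Ly6a, an alternative chosen after seeing the data, the median SD was 0.16. No paired analysis was possible because there is 1 group. Median-of-ratios scaling raised the SD of Smoc2 to 0.21, in place of 0.12, and lowered that of Hic1 to 0.07, in place of 0.14. Hic1, with as few as 361 reads, then varied by 5.74%, close to its counting error of 4.91%.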
